A study of Mus musculus with 12 samples.

Results

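The kidney's filtration barrier is described here through 30 podocyte and glomerular basement membrane genes, picked by symbol from the 24062 genes of the deposited count table. All 30 were found and passed the filter on low counts that kept 14970 genes for testing. They were followed over 12 whole-kidney libraries of adult mice of a Pkd1 model, 6 to 8 weeks old, all induced with tamoxifen and all sampled 4 weeks after surgery. Pkd1 encodes polycystin-1, and its loss in tubule cells gives polycystic kidney disease. The groups, of 3 libraries each, were UNx CrePlus (Cre present, unilateral nephrectomy, so that 1 kidney had been removed), UNx CreMinus (the same surgery without Cre), sham CrePlus (Cre present, sham nephrectomy) and sham CreMinus (neither Cre nor removal of a kidney). The labels give Cre as present or absent. The promoter that drives it, the cells it acts in, the Pkd1 allele and the strain are not stated, and whether Cre acted in podocytes was not tested. The comparisons address how Cre status and loss of a kidney bear on the barrier genes.

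The barrier between blood and urine has 3 layers: a fenestrated endothelium, a basement membrane and the podocytes. Podocytes wrap the capillaries with interlocking foot processes, which are held open by an actin skeleton and bridged by the slit diaphragm, a junction built around nephrin. The basement membrane beneath them is a network of type IV collagen and laminin. Podocytes also secrete the growth factor that keeps the capillary endothelium fenestrated, and a small set of transcription regulators maintains them. Mutations of many of these genes cause nephrotic syndrome or Alport syndrome in humans.

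Promoter windows of 3 of the genes are shown because the results turn on them. Nphs1 and Thsd7a tended to be low together in the same libraries, and Col4a4 went the other way. Each window runs from 250 bases before to 50 after 1 start per gene used by RefSeq (GRCm38.p6), which need not be the outer end of the gene. It lies at chr7:30459808-30460107 on the plus strand for Nphs1 and at chr6:12749204-12749503 on the minus strand for Thsd7a. In both, capitals mark the 50 bases that begin at the start used. The Nphs1 window lies wholly within the gene as RefSeq places it (chr7:30458207-30488623). The Col4a4 window lies at chr1:82586800-82587099 on the minus strand, and the start it uses lies within the gene. Col4a3 (chr1:82586921-82722059) starts head to head with Col4a4 (chr1:82448419-82587034), and capitals in that window mark the 114 bases that RefSeq places in both genes.
Nphs1: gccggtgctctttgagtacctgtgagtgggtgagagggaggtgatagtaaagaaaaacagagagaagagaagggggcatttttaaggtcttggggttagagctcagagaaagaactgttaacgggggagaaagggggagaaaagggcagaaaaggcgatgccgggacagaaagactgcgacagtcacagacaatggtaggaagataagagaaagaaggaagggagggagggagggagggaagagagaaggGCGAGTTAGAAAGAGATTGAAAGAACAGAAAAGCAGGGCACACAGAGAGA
Thsd7a: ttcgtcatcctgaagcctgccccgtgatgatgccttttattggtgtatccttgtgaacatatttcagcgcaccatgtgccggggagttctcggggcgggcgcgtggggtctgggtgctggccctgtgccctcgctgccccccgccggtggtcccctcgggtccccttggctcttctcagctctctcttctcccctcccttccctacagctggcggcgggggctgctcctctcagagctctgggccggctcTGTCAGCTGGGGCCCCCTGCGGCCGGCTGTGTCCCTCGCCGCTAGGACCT
Col4a4: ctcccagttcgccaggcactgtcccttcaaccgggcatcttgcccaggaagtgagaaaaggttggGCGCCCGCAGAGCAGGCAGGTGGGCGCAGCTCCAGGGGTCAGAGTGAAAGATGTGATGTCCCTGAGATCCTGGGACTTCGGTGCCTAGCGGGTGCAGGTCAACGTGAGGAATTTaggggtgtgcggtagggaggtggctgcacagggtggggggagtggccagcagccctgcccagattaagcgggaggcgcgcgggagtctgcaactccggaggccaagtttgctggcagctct
The GC box GGGCGG, searched on both strands, lay in the Thsd7a window and in 10 of the 23 members' windows that the table holds, against 35.9% of all 27025 windows. GCGTGGG, a letter string of the kind WT1 and EGR proteins bind, lay in the Thsd7a window and in 3 of the 23 (Actn4, Magi2 and Thsd7a), against 4.92% of all windows. TATAAA lay in 0 of the 23, against 14.2% of all windows. The 3 strings cannot overlap one another except at their ends, and a match is only a match of letters.

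The libraries held 18914300 to 22480895 counts in 8 cases and 41699032 to 42785476 in the other 4, namely all of UNx CrePlus plus UNx CreMinus replicate 1. Reads of Xist and of 4 Y-linked genes split the libraries into 5 male (UNx CrePlus replicates 1 and 2, UNx CreMinus replicate 1, sham CrePlus replicate 3 and sham CreMinus replicate 3) and 7 female. Depth and sex were therefore unevenly spread over the groups. Sham CrePlus replicate 1 was left out of a second sham table deposited by the authors. Pkd1, the gene the model is built on, stood at 45.5, 39.6 and 45.1 CPM (counts scaled to library size, with TMM factors) in UNx CrePlus, against 49.4, 49.3 and 71.6 CPM in UNx CreMinus. It stood at 64.1, 46.1 and 45.9 CPM in sham CrePlus, against 76.8, 60.3 and 57.8 CPM in sham CreMinus. The Cre effect on Pkd1, averaged over surgery, was −0.35 ± 0.13 on the log2 scale (SE, edgeR adjusted p = 0.316). Counts over the whole gene need not show the loss of a few exons.

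Podocyte RNA was present in every library. The markers Nphs1, Podxl, Synpo and Wt1 were detected in all 12, and none of the 30 genes was at 0 in any library. Compared per kilobase of exon, the highest levels were those of Actn4 (72.3 CPM per kb), which crosslinks actin in many cell types, and of Podxl (63.4 CPM per kb), the sialomucin that coats the foot process surface. Vegfa (46.1 CPM per kb), Col4a3 (38.6 CPM per kb), Arhgap24 (32.5 CPM per kb) and Col4a4 (25.8 CPM per kb) followed. Nphs1 ranked 14 of 30 with 8.08 CPM per kb and Wt1 ranked 21 of 30 at 2.62 CPM per kb. The lowest were Trpc6, a calcium channel of the foot process, at 0.152 CPM per kb and Lmx1b, a homeodomain factor, at 0.232 CPM per kb. Trpc6 rested on 9 to 44 counts a library and Lmx1b on 11 to 53, so these 2 are imprecise, whereas Podxl rested on 4435 to 17439.

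Cre status moved none of the 30 genes past the threshold. In UNx kidneys 0 of 30 were called by edgeR at an adjusted p under 0.05, where 0.140% of all tested genes were, and 0 had an unadjusted p under 0.05, against 10.7% of all. In sham kidneys 0 of 30 were called, against 0.0267% of all genes, and 0 had an unadjusted p under 0.05, against 4.05%. Averaged over surgery 0 of 30 were called, against 0.521% of all genes, and 1 of 30, Col4a4, had an unadjusted p under 0.05, against 11.8%. DESeq2 called 0 of 30 in each of these comparisons as well, with 0, 0 and 4 members at an unadjusted p under 0.05, against 7.77%, 2.90% and 8.45% of all 24062 genes. By edgeR the members' share past an unadjusted p lay below that of all tested genes in all 3 comparisons. The DESeq2 shares are of all 24062 genes, of which 19749 had any count. They therefore understate the share among genes with a p-value, and no excess is read from the 4 members. The 4 were Col4a4, higher in CrePlus, and Vegfa, Thsd7a and Foxc2, lower in CrePlus.

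Most estimates were lower in CrePlus, though in UNx kidneys this turned in some alternative fits. In UNx kidneys 22 of 30 members had a lower estimate in CrePlus than in CreMinus, with a median log2 difference of −0.22, where 52.2% of all genes were lower and their median was −0.01. With a term for depth 10 of 30 were lower and the median was 0.05. All 3 UNx CrePlus libraries were deep, 1 of the 3 UNx CreMinus libraries was, and no sham library was. The depth term therefore rests on UNx CreMinus, whose deep library, replicate 1, was also its only male one. Depth cannot be told apart from that library. Without the 3 male CrePlus libraries 12 of 30 were lower. That fit, chosen after seeing the data, keeps 1 UNx CrePlus library and the male CreMinus libraries, so sex is not balanced in it. In sham kidneys 24 of 30 were lower, with a median of −0.19, against 49.6% of all genes and a median of 0.00. Averaged over surgery 24 of 30 were lower, with a median of −0.23. The 6 with a higher estimate in CrePlus were Cd2ap, Actn4, Myo1e, Col4a3, Col4a4 and Col4a5. These are counts of directions that were not called. In the same UNx comparison 8 of 9 macrophage genes and 9 of 9 genes of fibroblasts and matrix had higher estimates in CrePlus, with 0 called in either list, and 9 of 9 genes of the loop and distal tubule had lower ones, with 0 called. Of the 8 tubular injury genes 7 were higher in UNx CrePlus and 1 was called, Cdkn1a, a cell cycle inhibitor, at 49.1, 46.8 and 37.3 CPM in UNx CrePlus, against 8.23, 15.4 and 10.7 CPM in UNx CreMinus (edgeR adjusted p = 0.00635). Summed macrophage levels ran from 388.7 to 646 CPM in UNx CrePlus, against 268 to 314 CPM in UNx CreMinus, and loop and distal tubule levels from 7442 to 11179 CPM in UNx CrePlus, against 11862 to 12556 CPM in UNx CreMinus. In sham kidneys 13 of 13 glomerular endothelium genes were lower in CrePlus (median −0.18), 7 of 9 mesangium and juxtaglomerular genes were lower (median −0.26) and 8 of 8 tubular injury genes were higher (median 1.14), with 0 called in each. Summed endothelial levels ran from 524 to 888 CPM in sham CrePlus, against 576 to 878 CPM in sham CreMinus. Mesangial sums ran from 161 to 233 CPM in sham CrePlus, against 157 to 277 CPM in sham CreMinus, and tubular injury sums from 940.2 to 3802 CPM in sham CrePlus, against 1132 to 2396 CPM in sham CreMinus. Apart from Ren1 of the mesangial list, no gene of these lists was at 0 in any library, and their part in the members' estimates was not tested. Fewer podocytes in the piece sampled and less RNA per podocyte cannot be told apart in whole kidney.

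**Figure D1:**
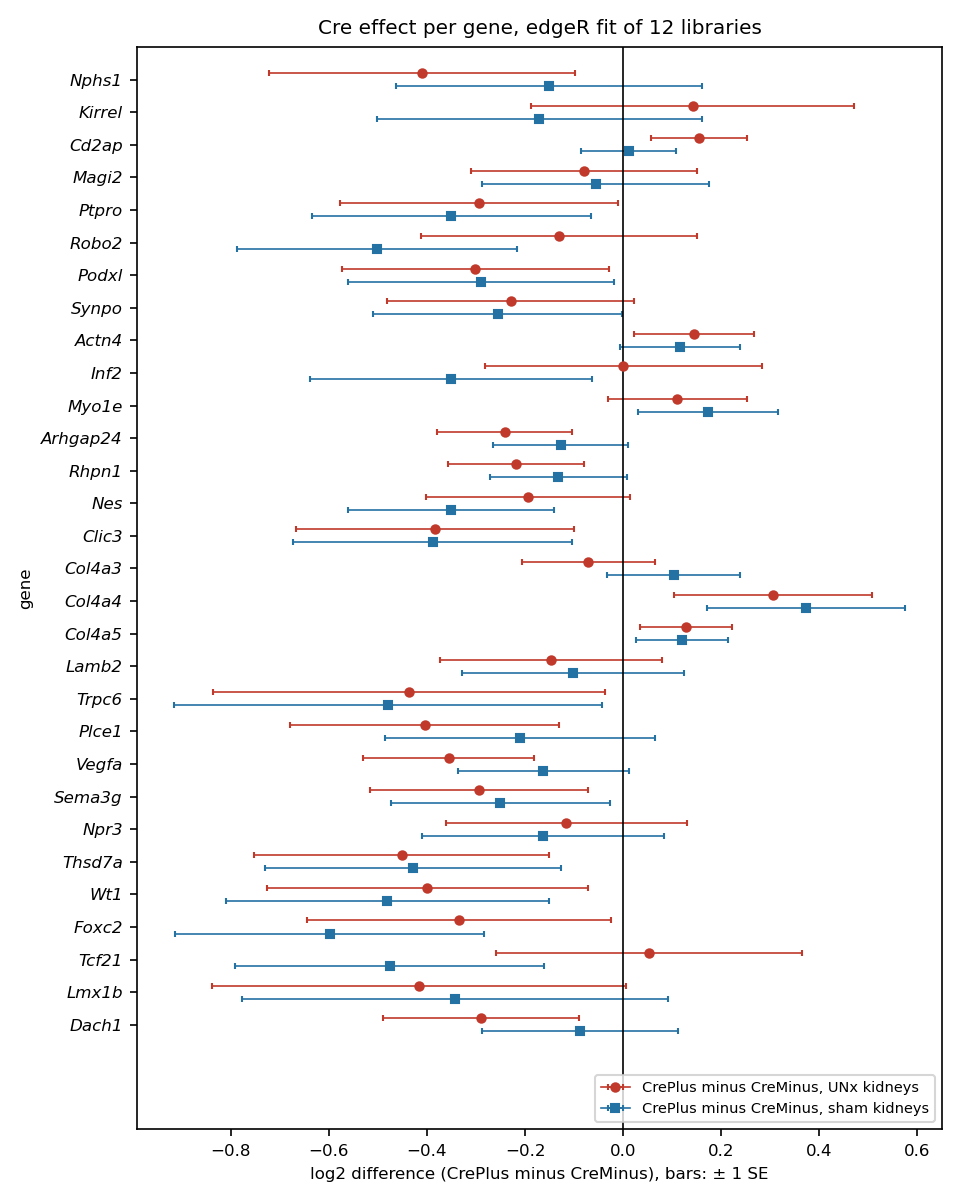
Log2 difference between CrePlus and CreMinus kidneys for each of the 30 genes, in UNx kidneys (circles, drawn above) and in sham kidneys (squares), with bars of 1 SE from the edgeR fit of 12 libraries. Most points lie left of 0, the Col4a4 points lie farthest to the right, and 0 of 30 genes passed the threshold in either comparison.

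The slit diaphragm genes showed no called difference, with 4 of 6 lower in UNx kidneys and 5 of 6 in sham kidneys. Nphs1 encodes nephrin, the core of the slit diaphragm. It stood at 48.2, 28.0 and 56.7 CPM in UNx CrePlus, against 43.5, 61.4 and 72.0 CPM in UNx CreMinus. It stood at 72.1, 53.7 and 31.4 CPM in sham CrePlus, against 63.6, 56.7 and 54.4 CPM in sham CreMinus. The groups overlapped in both pairs, and the low values of CrePlus were those of UNx CrePlus replicate 2 and sham CrePlus replicate 3. The log2 difference of Nphs1 was −0.41 ± 0.31 in UNx and −0.15 ± 0.31 in sham kidneys (SE). Ptpro, a receptor tyrosine phosphatase of the foot process surface, stood at 24.7, 17.3 and 37.6 CPM in UNx CrePlus, against 26.3, 31.0 and 40.4 CPM in UNx CreMinus. It stood at 40.0, 29.5 and 22.1 CPM in sham CrePlus, against 39.3, 43.5 and 33.9 CPM in sham CreMinus. Its lowest libraries were again UNx CrePlus replicate 2 and sham CrePlus replicate 3, and both pairs overlapped. Robo2, a guidance receptor that binds the nephrin complex through an adaptor, stood at 14.2, 10.7 and 17.5 CPM in UNx CrePlus, against 13.6, 13.5 and 19.3 CPM in UNx CreMinus. It stood at 17.1, 9.95 and 8.01 CPM in sham CrePlus, against 16.9, 19.4 and 13.5 CPM in sham CreMinus. Of the sham CrePlus libraries 2 lay below every sham CreMinus library and the other one did not. The sham difference of −0.50 ± 0.29 had the smallest unadjusted p of this role, 0.107, and an edgeR adjusted p of 1.00. Cd2ap, the adaptor that ties nephrin to actin and is made in many cells, varied least of all 30 genes, with a coefficient of variation of 7.65% over the 12 libraries. Kirrel, which pairs with nephrin, varied by 27.5% and Magi2, a scaffold that binds nephrin, by 18.5%.

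Genes of the foot process surface and its actin skeleton were lower in 6 of 9 cases in UNx kidneys and in 7 of 9 in sham kidneys, with 0 of 9 called in either. Podxl stood at 293, 215 and 399 CPM in UNx CrePlus, against 302, 384 and 431 CPM in UNx CreMinus. It stood at 436, 313 and 219 CPM in sham CrePlus, against 437, 417 and 330.3 CPM in sham CreMinus. Both pairs overlapped, and the Podxl difference was −0.30 ± 0.27 in UNx and −0.29 ± 0.27 in sham kidneys (log2, SE). Synpo, the actin-associated synaptopodin, stood at 80.5, 58.1 and 90.3 CPM in UNx CrePlus, against 72.4, 98.8 and 97.4 CPM in UNx CreMinus, and at 107, 71.4 and 49.0 CPM in sham CrePlus, against 93.8, 96.0 and 81.6 CPM in sham CreMinus. The spread among the 3 sham CrePlus libraries (SD 29.1) exceeded the gap between the sham means, 75.7 CPM in CrePlus and 90.5 CPM in CreMinus. Clic3, of the chloride intracellular channel family, stood at 8.09, 6.35 and 11.8 CPM in UNx CrePlus, against 8.51, 11.4 and 14.4 CPM in UNx CreMinus. It stood at 12.7, 12.1 and 7.61 CPM in sham CrePlus, against 17.5, 13.3 and 11.5 CPM in sham CreMinus. The groups overlapped in both pairs, and its log2 difference averaged over surgery was −0.39 ± 0.20 (SE, edgeR adjusted p = 0.475). Arhgap24, a GTPase-activating protein for Rac, stood at 237, 219 and 311 CPM in UNx CrePlus, against 285, 304 and 318 CPM in UNx CreMinus. It stood at 258, 300.3 and 279 CPM in sham CrePlus, against 284, 342 and 288 CPM in sham CreMinus. Its groups overlapped as well, with an averaged difference of −0.18 ± 0.10 (log2, SE). Actn4 and the motor protein gene Myo1e had higher estimates in CrePlus in both surgeries, and the formin gene Inf2, Rhpn1 and the intermediate filament gene Nes completed the role with an unadjusted p above 0.09 in every comparison.

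**Figure D2:**
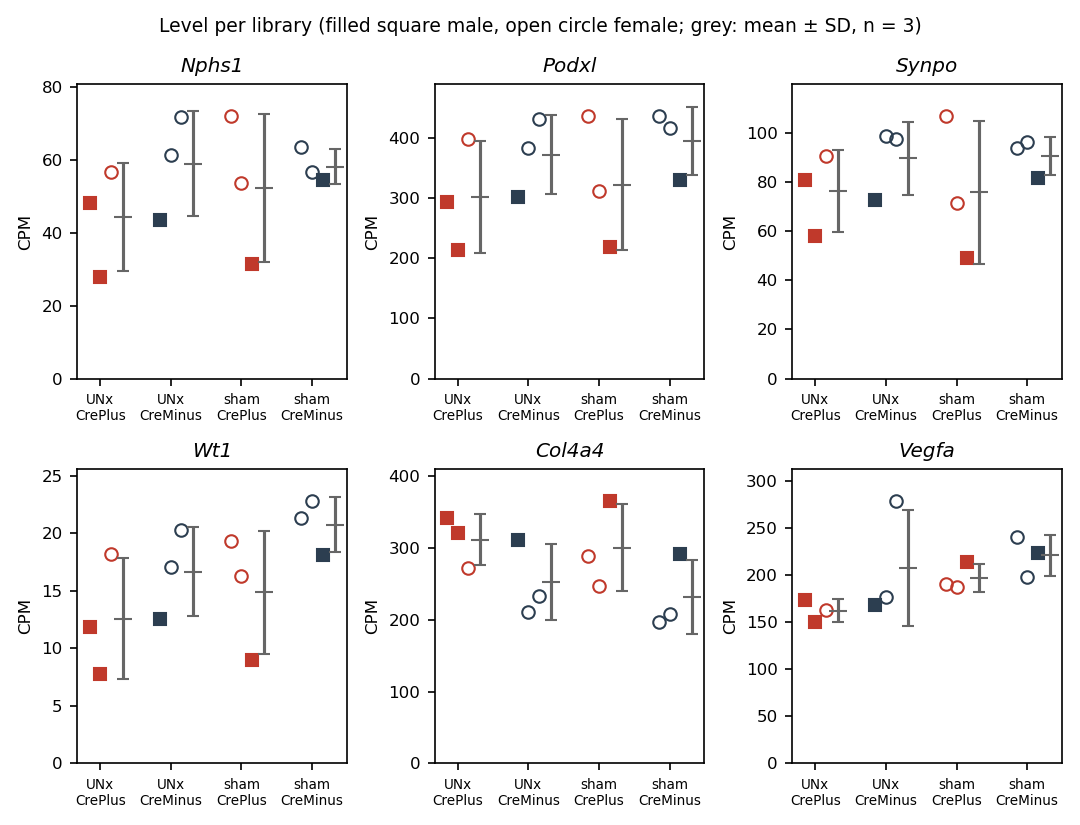
CPM of Nphs1, Podxl, Synpo, Wt1, Col4a4 and Vegfa in each library by group, with the mean ± SD of 3 libraries in grey, filled squares for male and open circles for female libraries. The lowest points of Nphs1, Podxl, Synpo and Wt1 are male CrePlus libraries, while for Col4a4 all 5 male libraries lie above all 7 female ones.

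Among the basement membrane genes Col4a4 stood apart. Col4a3, Col4a4 and Col4a5 encode the alpha chains of the mature glomerular network, which are also made by some tubule cells, and Lamb2 a beta chain of laminin. Col4a4 stood at 342, 321 and 272 CPM in UNx CrePlus, against 312, 211 and 234 CPM in UNx CreMinus, and at 289, 248 and 366 CPM in sham CrePlus, against 197, 209 and 291 CPM in sham CreMinus. The groups overlapped in both pairs. Averaged over surgery Col4a4 was 0.34 ± 0.14 higher on the log2 scale in CrePlus (SE), with an unadjusted p of 0.0377 and an edgeR adjusted p of 0.395, so it was not called. Col4a5 stood at 75.0, 70.4 and 65.5 CPM in UNx CrePlus, against 65.1, 61.9 and 65.9 CPM in UNx CreMinus, and at 79.8, 63.3 and 64.9 CPM in sham CrePlus, against 62.2, 65.1 and 64.2 CPM in sham CreMinus. It varied little, and its averaged difference was 0.12 ± 0.07 (log2, SE, edgeR adjusted p = 0.482). Col4a3, the head-to-head neighbour of Col4a4, showed an averaged difference of 0.02 ± 0.10, and Lamb2 of −0.12 ± 0.16. The annotated exons of Col4a3 and Col4a4 share no base in GENCODE M21, but 563 exon bases of Col4a3 lie opposite a processed transcript, and the library kit does not mark strand. The same limit holds for Nphs1, with 597 exon bases opposite an antisense transcript and 183 opposite a pseudogene. Exons of other genes also overlap those of Npr3 (321 bases), Actn4 (316 bases) and Magi2 (203 bases).

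All 6 genes of channels, signalling and secreted factors had lower estimates in CrePlus, both in UNx and in sham kidneys, with 0 of 6 called. Vegfa, which podocytes and tubule cells secrete for the capillary endothelium, stood at 174, 150.4 and 163 CPM in UNx CrePlus, against 168, 177 and 279 CPM in UNx CreMinus. It stood at 191, 188 and 215 CPM in sham CrePlus, against 241, 198 and 224 CPM in sham CreMinus. The gap in UNx kidneys lay mostly in UNx CreMinus replicate 3, and the Vegfa difference there was −0.36 ± 0.17 (log2, SE, edgeR adjusted p = 0.502). Thsd7a, a podocyte surface protein that is an autoantigen in human membranous nephropathy, stood at 14.7, 12.7 and 22.2 CPM in UNx CrePlus, against 21.7, 19.4 and 26.7 CPM in UNx CreMinus. It stood at 26.3, 18.7 and 10.8 CPM in sham CrePlus, against 27.2, 28.2 and 19.8 CPM in sham CreMinus. In each pair 2 CrePlus libraries lay below every CreMinus library, and its averaged difference of −0.44 ± 0.21 had an edgeR adjusted p of 0.446. Plce1, a phospholipase C, differed by −0.31 ± 0.19 and Sema3g, a secreted semaphorin, by −0.27 ± 0.16. Npr3, the clearance receptor of natriuretic peptides, differed by −0.14 ± 0.17. Trpc6 differed by −0.46 ± 0.30 on its few counts.

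The 5 transcription regulators had lower averaged estimates in CrePlus, with 0 of 5 called. Wt1, a zinc finger factor that podocytes keep throughout life, stood at 11.8, 7.75 and 18.2 CPM in UNx CrePlus, against 12.6, 17.1 and 20.3 CPM in UNx CreMinus. It stood at 19.4, 16.3 and 8.94 CPM in sham CrePlus, against 21.3, 22.8 and 18.1 CPM in sham CreMinus. The Wt1 groups overlapped in both pairs, and its averaged difference was −0.44 ± 0.23 (log2, SE, edgeR adjusted p = 0.479). Foxc2, a forkhead factor, stood at 3.41, 2.78 and 3.96 CPM in UNx CrePlus, against 3.14, 3.82 and 5.93 CPM in UNx CreMinus, and at 4.87, 2.82 and 2.22 CPM in sham CrePlus, against 5.84, 4.56 and 4.68 CPM in sham CreMinus. Its averaged difference of −0.47 ± 0.22 was the lowest estimate among the 30 genes and had an edgeR adjusted p of 0.438. Tcf21, a basic helix-loop-helix factor also made in renal stroma, ranged from 13.9 to 26.1 CPM among the UNx CreMinus libraries and from 14.2 to 32.1 CPM among the sham CreMinus libraries. Dach1, a nuclear regulator of the dachshund family, differed by −0.19 ± 0.14 averaged over surgery, and Lmx1b by −0.38 ± 0.30.

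Removal of a kidney moved none of the 30 genes past the threshold either. By edgeR 0 of 30 were called in CrePlus kidneys, in CreMinus kidneys or averaged over Cre status, where 0% of all genes were called in each. At an unadjusted p under 0.05 the members' count was 0 in each, against 6.83%, 1.30% and 5.66% of all genes, and DESeq2 gave 0 in each. The median log2 difference of the members, UNx minus sham, was −0.02 in CrePlus kidneys with 16 of 30 lower, −0.07 in CreMinus kidneys with 20 of 30 lower, and −0.03 averaged with 20 of 30 lower. The averaged count has no steady direction, since it was 3 with a term for depth, 13 with a term for sex, 8 without sham CrePlus replicate 1 and 11 without UNx CrePlus replicate 2. The depth term rests on UNx CreMinus, the only group with libraries of both depths. Clic3 had the smallest unadjusted p of the averaged comparison, 0.155, with a difference of −0.31 ± 0.20 (log2, SE, edgeR adjusted p = 0.904). Vegfa averaged 163 ± 11.8 CPM in UNx CrePlus and 198 ± 14.8 CPM in sham CrePlus (SD, n = 3 each), a difference of −0.28 ± 0.17 (log2, SE, edgeR adjusted p = 0.812). Its 3 UNx CrePlus libraries all lay below the 3 sham CrePlus libraries. All of UNx CrePlus was deep and none of sham CrePlus was, so surgery and depth cannot be told apart in that pair. The interaction of Cre status and surgery called 0 of 30 by edgeR, with 0 at an unadjusted p under 0.05, against 0% and 1.85% of all genes, and 0 and 0 by DESeq2. Its standard errors ran from 0.13 for the most precise member to 0.60, so sizeable differences between the 2 Cre effects could not have been seen for the rarer genes.

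Vegfa was the only member with groups that did not overlap, and this held for 1 pair, UNx CrePlus and sham CrePlus. All 3 UNx CrePlus libraries were deep and none of sham CrePlus was, so surgery and depth cannot be told apart there. The background for separation of 3 libraries from 3 was 7.47% of all genes lower and 8.33% higher for the Cre effect in UNx kidneys, 3.49% and 4.66% in sham kidneys, 5.05% and 4.73% for the UNx effect in CrePlus kidneys, and 2.19% and 2.67% in CreMinus kidneys. The members' counts were 0 lower and 0 higher in each, other than the 1 lower, Vegfa, for the UNx effect in CrePlus kidneys. Against 5.05% of all genes no excess is read from 1 of 30. The authors' deposited table of UNx and sham CrePlus kidneys was made from the same libraries. In it Vegfa had a log2 fold change of −0.26, with the authors' unadjusted p of 0.0246 and adjusted p of 0.579.

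Much of the spread lay within the groups and ran along the same libraries for most members. UNx CrePlus replicate 2 or sham CrePlus replicate 3, both male, held the lowest of the 12 values for 22 of 30 members, against 23.3% of all tested genes. Sham CrePlus replicate 3 alone was lowest for 14 of 30 (46.7%, against 12.8% of all genes) and UNx CrePlus replicate 2 for 8 of 30 (26.7%, against 10.5%). Within its own group the male library UNx CreMinus replicate 1 was lowest for 22 of 30 (73.3%, against 38.7% of all genes) and the male library sham CreMinus replicate 3 for 18 of 30 (60%, against 39.2%). Male UNx CrePlus replicate 1 was lowest in its group for 2 of 30. Taking each gene's deviation from its mean over 12 libraries on the log2(CPM + 0.5) scale, the members' median was −0.04, −0.37 and 0.14 in UNx CrePlus, against −0.13, 0.04 and 0.36 in UNx CreMinus. It was 0.29, −0.09 and −0.47 in sham CrePlus, against 0.31, 0.13 and 0.02 in sham CreMinus. The median of the 4 basement membrane genes stayed between −0.12 and 0.18, but its genes differed. Lamb2 was lowest in sham CrePlus replicate 3, at 52.5 CPM, and stood at 55.1 CPM in UNx CrePlus replicate 2. Col4a3 and Col4a4 lay above their means in both of these libraries.

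**Figure D3:**
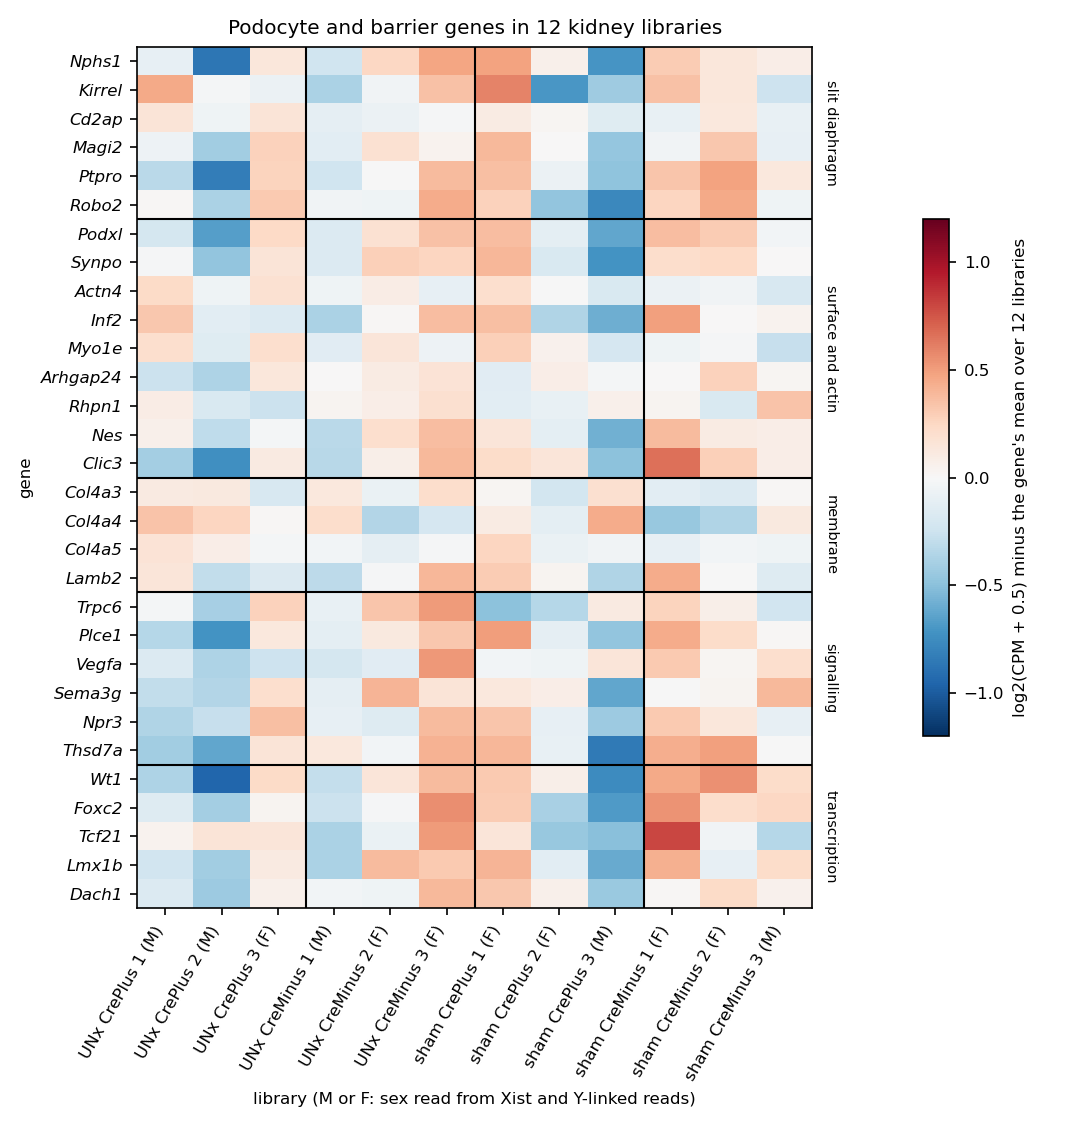
Each gene's log2(CPM + 0.5) minus its mean over 12 libraries (colour, blue low and red high), with genes in rows by role and libraries in columns by group, labelled M or F by the sex read from Xist and Y-linked reads. UNx CrePlus replicate 2 and sham CrePlus replicate 3 are blue for most genes, while Col4a3 and Col4a4 are red in both.

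A fit with sex as a term beside the 4 group means, added after the libraries had been seen to differ this way, gave a male minus female estimate for each gene. The sexes are read from the counts and not from the labels, and depth was uneven between them. By edgeR 11 of 30 members were called lower in the 5 male libraries than in the 7 female ones, against 9.89% of all tested genes, and 1 of 30 was called higher, against 10.5%. In all 26 of 30 had a lower estimate, with a median of −0.37, where 54.1% of all genes were lower and their median was −0.02. The count of 11 was 3 without sham CrePlus replicate 3, against 625 of 15143 tested genes. It was 5 without UNx CrePlus replicate 3, against 1251 of 15145. With a library left out, 25 to 27 of 30 estimates were lower. With a term for depth beside sex the count was 8, against 956 of all 14970 tested genes, and Nphs1, Synpo and Nes were not called. In UNx CreMinus, the only group with both depths, the deep library was the male one. Without a depth term those called lower were Nphs1, Magi2 and Ptpro at the slit diaphragm and Podxl, Synpo, Nes and Clic3 of the surface and skeleton. The others were Plce1, Npr3 and Thsd7a of signalling, and the regulator Wt1. Podxl ranged from 215 to 330.3 CPM with a median of 293 in the male libraries, against 313 to 437 CPM with a median of 417 in the female libraries. Its difference was −0.55 ± 0.11 (log2, SE, edgeR adjusted p = 0.00610). Wt1 ranged from 7.75 to 18.1 CPM with a median of 11.8 in male libraries, against 16.3 to 22.8 CPM with a median of 19.4 in female libraries, a difference of −0.68 ± 0.14 (edgeR adjusted p = 0.00580). Nphs1 differed by −0.57 ± 0.16 (edgeR adjusted p = 0.0275) and Clic3 by −0.61 ± 0.11 (edgeR adjusted p = 0.00331). Magi2 was the 1 member with every male library, at most 17.5 CPM, below every female library, at least 17.6 CPM, a separation seen for 4.23% of all genes.

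Col4a4 ran against the podocyte genes here too. It ranged from 291 to 366 CPM with a median of 321 in the 5 male libraries, against 197 to 289 CPM with a median of 234 in the 7 female libraries. Every male library lay above every female library, which held for 5.20% of all genes, and the difference was 0.44 ± 0.07 (log2, SE, edgeR adjusted p = 0.00103). Its neighbour Col4a3 ranged from 387 to 437 CPM in male libraries, against 329.6 to 443 CPM in female libraries, a difference of 0.20 ± 0.08 that was not called (edgeR adjusted p = 0.0874). Col4a5, which is X-linked, differed by 0.01 ± 0.07 and Vegfa by −0.05 ± 0.13.

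**Figure D4:**
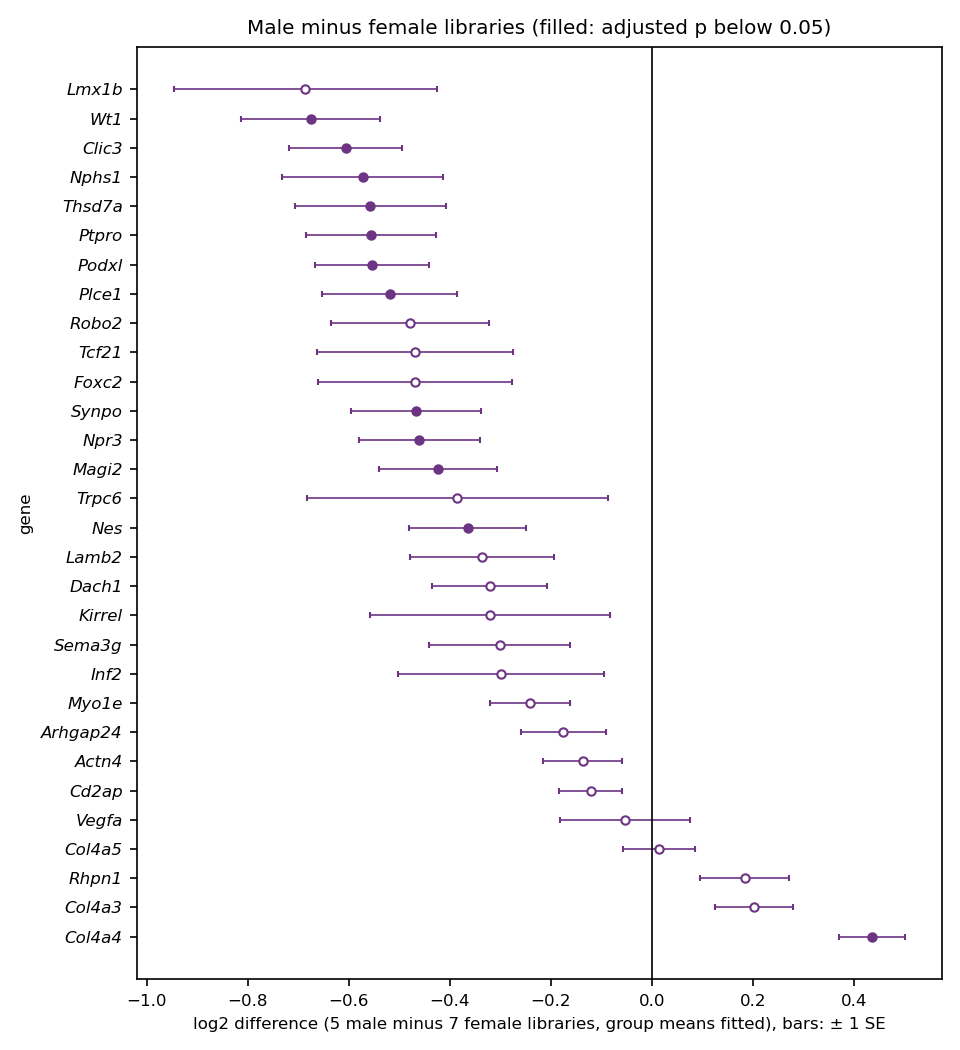
Male minus female log2 difference of each gene with bars of 1 SE, from the edgeR fit of 4 group means and sex over 12 libraries, sorted from the lowest estimate (top) to the highest; filled points passed an adjusted p of 0.05. The 11 filled points lie left of 0 and Col4a4 is the filled point to the right.

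With the sex term the Cre effect averaged over surgery still called 0 of 30, while 7 of 30 members reached an unadjusted p under 0.05, against 15.9% of all genes. Col4a4 had the smallest edgeR adjusted p, 0.0551, with a difference of 0.28 ± 0.06 (log2, SE). Clic3 (−0.30), Thsd7a (−0.39), Wt1 (−0.38), Foxc2 (−0.40) and Rhpn1 (−0.21) were lower and Myo1e (0.18) higher. In sham kidneys alone 7 of 30 reached an unadjusted p under 0.05 with the sex term, against 7.60% of all genes, and 0 were called. Within sexes the members' median Cre effect averaged over surgery was −0.10 in the 7 female and −0.24 in the 5 male libraries. Among the female libraries UNx CrePlus is represented by replicate 3 alone, so the Cre effect in UNx kidneys there rests on that library. Among the male libraries 3 of the 4 groups hold a single library, so the spread there comes from the 2 male UNx CrePlus libraries, with 1 residual degree of freedom, and each lone library is assumed to vary like them. That fit called 1 of 30, Thsd7a, at −0.77 ± 0.15 (edgeR adjusted p = 0.0493), against 0.950% of all genes.

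With a library left out, the members' median Cre effect ran from −0.36 to −0.09 in UNx kidneys. It moved more in sham kidneys, from −0.43 to −0.04. Without sham CrePlus replicate 1 the members' median Cre effect there was −0.43 and 7 of 30 had an unadjusted p under 0.05, against 5.18% of all genes, with 0 called, among them Robo2 (−0.89) and Foxc2 (−0.99). Without sham CrePlus replicate 3 the median was −0.04. The Cre effect in UNx kidneys also leaned on single libraries. Without UNx CrePlus replicate 3, 6 of 30 had an unadjusted edgeR p under 0.05 there, against 14.2% of all genes. Averaged over surgery 9 of 30 did in that fit, against 14.1%, with 0 called in either. In the authors' deposited table that leaves out sham CrePlus replicate 1, 11 of 30 members had an unadjusted p under 0.05, all with negative fold changes, against 3.67% of the genes with a p-value there. Fold changes in the authors' deposited tables are shrunken towards 0. Robo2 had the smallest, 0.000421, with a log2 fold change of −0.63 and an adjusted p of 0.103. By adjusted p under 0.05, the deposited results held 0 of 30 members in each of the 6 tables. Among all 24067 rows 5 to 267 passed, so 0 of 30 is not read as a result about the members. Without the 3 male CrePlus libraries the members' median Cre effect was 0.03 in UNx kidneys and −0.04 in sham kidneys. That setting was chosen after seeing the data, takes out the libraries lowest for most members and leaves 1 UNx CrePlus library. The male CreMinus libraries stay in, so part of the rise of these medians was built in.

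Other podocyte genes, a list of 25 chosen by name and not among the 30, had 0 of 24 tested genes called for Cre averaged over surgery or for surgery averaged over Cre status. For the Cre effect averaged over surgery 14 of 24 were higher and 10 lower. For sex, 8 of 24 were called lower in male libraries and 0 higher. Mme, a membrane peptidase that proximal tubule cells also make, and Ddn, dendrin of the slit diaphragm, were among the 8.

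Lists of other cell types also differed between male and female libraries, in both directions. Of the 13 genes of glomerular endothelium 13 had a lower estimate in male libraries and 4 were called, and their summed level ran from 524 to 798 CPM in male libraries, against 595 to 889 CPM in female libraries. Of the 8 collecting duct genes 6 were called lower in male libraries, with sums of 475 to 778 CPM in male libraries, against 844 to 1272 CPM in female libraries. The 9 loop and distal tubule genes had 4 called lower, with sums of 7442 to 11862 CPM in male libraries, against 10661 to 12556 CPM in female libraries. The 9 macrophage genes had 9 higher estimates and 0 called, with sums of 268 to 646 CPM in male libraries, against 262 to 562 CPM in female libraries. Of the 10 proximal tubule genes 6 had a lower estimate in male libraries (median −0.11), with 3 called higher and 2 lower. Their sums ran from 27133 to 57967 CPM in male libraries, against 17637 to 25046 CPM in female libraries. A sum weighs the most abundant genes most, so these sums do not show the direction of most genes of the list. Kap, an androgen-regulated kidney protein gene, led those called higher at 2.55 ± 0.30 (log2, SE, edgeR adjusted p = 0.000240). No gene of these 5 lists was at 0 in any library. The part of kidney composition in the members' values was not tested. Vegfa's partners, 8 receptor and ligand genes, had 0 called for averaged Cre status, averaged surgery or sex, and Vegfb had the smallest p of them, with an averaged Cre difference of 0.54 ± 0.11 (log2, SE, edgeR adjusted p = 0.0552).

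**Figure D5:**
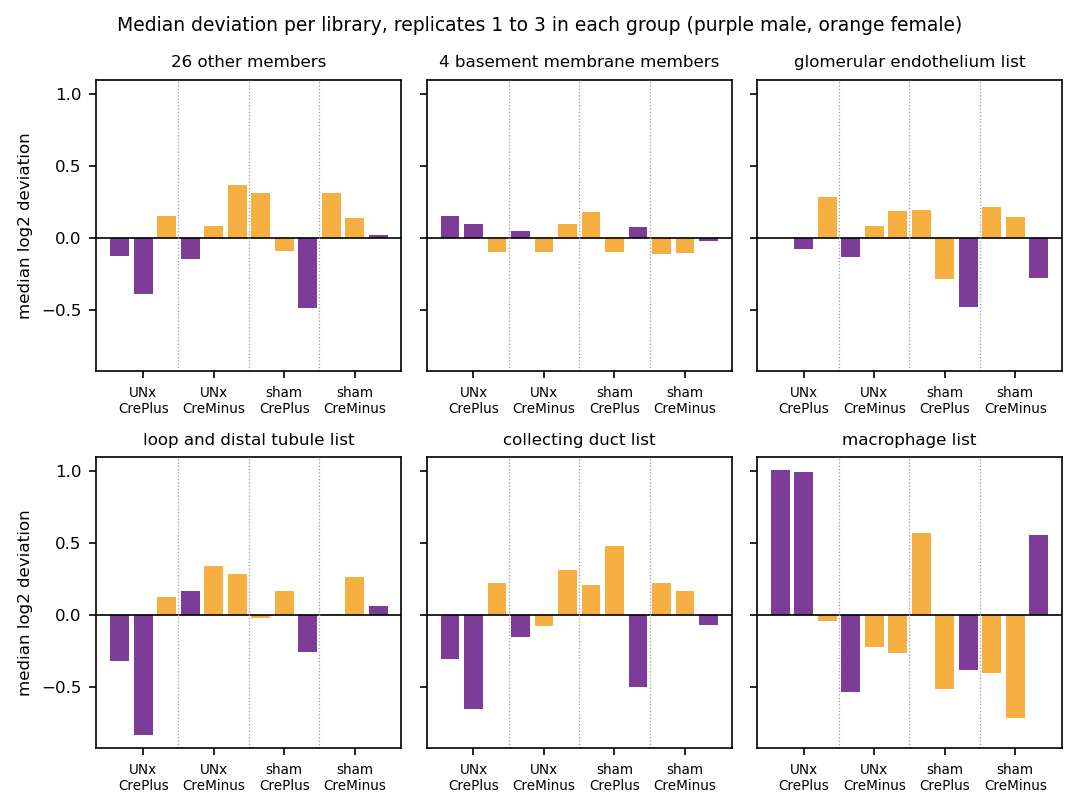
Median deviation of each list from its genes' means over 12 libraries (log2 scale), in replicates 1 to 3 of each group, purple for male and orange for female libraries. The 26 members outside the basement membrane, the endothelial list and the collecting duct list are low in sham CrePlus replicate 3, the median of the 4 basement membrane genes stays between −0.12 and 0.18, and the macrophage list is high in UNx CrePlus replicates 1 and 2.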

How the data were processed

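RNA of whole kidney was made into SMART-Seq v4 libraries, which do not mark strand, per the labels' protocols. The submitters' processing notes name FastQC 0.11.5, cutadapt 1.11, HTSeq, DESeq2 and mm10 or GRCm38, without roles; the aligner and annotation are not stated. The deposited tables hold counts per gene, which the authors did not normalize, beside the authors' log2 fold changes with p-values and adjusted p-values. Here, 24062 genes were filtered with filterByExpr, scaled by TMM and fitted with edgeR 4.0.16 (4 group means, 12 libraries, quasi-likelihood test, Benjamini-Hochberg over 14970 genes, threshold 0.05), and with DESeq2 1.42.0 as an alternative. Levels are CPM with TMM library sizes, and levels per kilobase use the union of GENCODE M21 exons. The 30 members and all lists were chosen with earlier results of these data known. Values in every library are given for Nphs1, Podxl, Wt1, Synpo and the 2 members of smallest unadjusted p in each role. Library sex was read from Xist, Ddx3y, Eif2s3y, Kdm5d and Uty, and the sex coefficient was fitted after seeing the data. The labels give 3 animals for each group, but the title of sham CrePlus replicate 1 holds a group name where other titles hold a number, so its animal is not identified by it. P-values measure the spread between these libraries.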

Additional observations from a re-analysis of the deposited data

How the results depend on the processing

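The count of called members was 0 in each of the 7 comparisons under every alternative listed at the outset (DESeq2, no filter on low counts, terms for sex or depth or both, female libraries only, no TMM, upper-quartile factors) and without each of the 12 libraries in turn, where the range was 0 to 0. Fits of only the groups compared were made for the 4 comparisons within a surgery or Cre status and also called 0. Of the alternatives chosen after seeing the data, the male libraries alone called 1 member for the Cre effect averaged over surgery. Members with a lower estimate for the Cre effect in UNx kidneys numbered 22, but 10 with a term for depth and 12 without the 3 male CrePlus libraries, and 19 to 25 with a library left out. Depth varied within UNx CreMinus alone, where the deep library was the male one, so fits with a depth term rest on that library. The fit without the 3 male CrePlus libraries keeps 1 UNx CrePlus library and all male CreMinus libraries. For the Cre effect in sham kidneys the range with a library left out was 19 to 25, and averaged over surgery it was 23 to 25. For the UNx effect averaged over Cre status the count of 20 became 13 with a sex term, 3 with a depth term, 12 with both, 13 in females and 13 in males, and 8 to 23 with a library left out. Of 286 estimates of 13 named members for the averaged Cre effect, 283 kept their sign. The 3 that turned, all without the 3 male CrePlus libraries, were Ptpro (0.0231), Nphs1 (0.0297) and Podxl (0.0131). Most of the 13 were named for a small unadjusted p in these same data, and most fits reuse most of the libraries. Kept signs were therefore partly built in and are no independent evidence. The count of members called lower in male libraries, 11, was 8 with a term for depth. It was 1 in CrePlus libraries alone (Sema3g, not among the 11), against 251 of 15019 tested genes. In CreMinus libraries alone it was 1 (Podxl), against 472 of 14532, and Col4a4 was called higher there. Fewer libraries entered these fits, and no excess is read from 1 member. With a library left out the count called lower was 3 to 14. The least was without sham CrePlus replicate 3, against 625 of 15143 tested genes. Without UNx CrePlus replicate 3 the count was 5, against 1251 of 15145. Where the other causes are not given by the construction, the cause was not tested. Trpc6 and Lmx1b are limited by depth. No paired analysis was possible because the labels carry no replicate numbers.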

Other observations

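Outside the 30 genes, other genes of the glomerulus had a lower unadjusted p for Cre status, though 0 of them passed the threshold. Smad6, an inhibitor of BMP signalling listed with the glomerular endothelium, averaged 8.58 ± 0.233 CPM in UNx CrePlus and 12.9 ± 2.55 CPM in UNx CreMinus, and 9.12 ± 1.82 CPM in sham CrePlus and 13.7 ± 2.14 CPM in sham CreMinus (SD, n = 3 each). Its difference averaged over surgery was −0.58 ± 0.13 (log2, SE, edgeR adjusted p = 0.0926). Lamc1, the gamma chain of most basement membrane laminins, averaged 93.2 ± 9.60 CPM in UNx CrePlus and 65.9 ± 2.52 CPM in UNx CreMinus, and 75.9 ± 12.5 CPM in sham CrePlus and 69.2 ± 8.89 CPM in sham CreMinus (SD, n = 3 each). In UNx kidneys 11 of 11 further basement membrane genes and 8 of 8 genes of the parietal epithelium, which lines Bowman's capsule, had higher estimates in CrePlus, with 0 called in either list. Anln, a cytokinesis gene, stood at 13.2, 13.4 and 3.18 CPM in UNx CrePlus, against 4.14, 5.66 and 1.82 CPM in UNx CreMinus, so its high values were those of the 2 male UNx CrePlus libraries.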
